A study of Mus musculus with 6 samples.

Results

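The genes described here are *Nfe2l2*, which encodes the transcription factor NRF2, *Keap1*, which encodes its inhibitor, and 8 genes known as NRF2 targets: *Nqo1*, *Hmox1*, *Gclc*, *Gclm*, *Txnrd1*, *Srxn1*, *Slc7a11* and *Gsr*. They were chosen by name, as the 10 rows of these genes among the 25184 genes of the count table, and all 10 were among the 15105 genes that passed the filter on low counts. Expression was measured by stranded mRNA sequencing in primary hepatocytes kept overnight in culture on collagen, isolated from chow-fed mice, 3 of the genotype *Sucnr1* fl/fl and 3 of the genotype Hep-*Sucnr1* KO. *Sucnr1* encodes the receptor for extracellular succinate. All 6 mice carried floxed alleles of *Sucnr1*. The Hep-*Sucnr1* KO mice also carried Cre driven by the albumin promoter, which the study describes as specific to hepatocytes. The study reports no measurement of the gene in other cell types of the liver. The study's methods give a C57BL6J background for the parents that carried Cre and none for the floxed line. The *Sucnr1* fl/fl mice had no Cre, so a difference between genotypes covers the deletion and Cre together. The age and sex of the mice used for sequencing are not given in the sources used here. Replicates are numbered as in the labels, 1, 2 and 3 for *Sucnr1* fl/fl and 3, 4 and 5 for Hep-*Sucnr1* KO, with *Sucnr1* fl/fl 1 and Hep-*Sucnr1* KO 3 on extraction day 1 and the other libraries on extraction day 2.

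NRF2 is the main transcriptional activator of the antioxidant response. In unstressed cells KEAP1, an adaptor of the CUL3 ubiquitin ligase, binds NRF2 and sends it for degradation; electrophiles and oxidants modify cysteines of KEAP1, NRF2 then accumulates, pairs with a small MAF protein and binds antioxidant response elements near its targets. This control acts mostly on the protein, so the mRNA of *Nfe2l2* itself does not report NRF2 activity, and its targets are the usual readout at the mRNA level. The liver relies on them for glutathione, for the thioredoxin system and for handling heme and quinones.

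Promoter sequence was available in RefSeq (GRCm38.p6) for 7 of the 10 genes, with 9 start sites between them, and the 250 bases before each start were searched on both strands. The core of the antioxidant response element was searched as TGACNNNGC, and an amino acid response element, the kind of site bound by the stress factor ATF4, as TGATGNAA. The antioxidant letters stood in 3 of the 9 promoters, those of *Nfe2l2*, *Gclm* and 1 of the 3 start sites of *Txnrd1*, against 10.2% of all 32851 promoters searched. The amino acid letters stood in 1, that of *Slc7a11*, at 2 places, against 3.45% of all promoters. The stretches holding them are shown because the antioxidant element is the kind of site bound by NRF2 and the amino acid element the kind bound by ATF4. Whether either element bears on the levels given below was not tested. Capitals mark the motif letters, and each stretch is written 5′ to 3′ on the strand of its gene.
*Nfe2l2*, chr2:75704794-75704913, minus strand, positions -250 to -131 from the start: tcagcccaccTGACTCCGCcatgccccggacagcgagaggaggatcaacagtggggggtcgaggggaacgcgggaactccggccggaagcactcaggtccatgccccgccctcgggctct
*Gclm*, chr3:122245367-122245486, plus strand, positions -190 to -71: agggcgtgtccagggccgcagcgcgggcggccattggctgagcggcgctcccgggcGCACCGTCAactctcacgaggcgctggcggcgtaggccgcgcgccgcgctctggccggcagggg
*Txnrd1*, chr10:82859058-82859177, plus strand, positions -148 to -29: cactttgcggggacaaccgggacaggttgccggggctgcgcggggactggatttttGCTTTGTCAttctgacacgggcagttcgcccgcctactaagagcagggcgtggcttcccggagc
*Slc7a11*, chr3:50443614-50443733, minus strand, positions -120 to -1: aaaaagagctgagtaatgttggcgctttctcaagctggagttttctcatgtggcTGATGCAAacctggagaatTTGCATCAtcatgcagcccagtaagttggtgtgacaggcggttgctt
In *Gclm* and *Txnrd1* the capitals are the reverse complement of the motif, starting 134 and 92 bases upstream, and in *Slc7a11* the first copy, 66 bases upstream, reads forward and the second, 47 bases upstream, reads in reverse. *Keap1*, *Nqo1*, *Srxn1* and *Slc7a11* were searched and held no antioxidant letters, while *Hmox1*, *Gclc* and *Gsr* had no promoter sequence and were not searched. A match is a description of letters, and genes without one may have the element farther away.

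The libraries held between 30504248 and 38770694 counts. *Sucnr1* was at 6.71, 3.55 and 3.40 CPM (counts scaled to the library total with TMM factors) in *Sucnr1* fl/fl 1, 2 and 3, against 2.66, 0.827 and 0.152 CPM in Hep-*Sucnr1* KO 3, 4 and 5. The groups did not overlap (log2 fold change -2.23, SE 0.535, FDR 0.998 in edgeR and -2.31, adjusted p 0.0328 in DESeq2). The Hep-*Sucnr1* KO libraries stood at 39.6%, 23.8% and 4.37% of the same-day *Sucnr1* fl/fl level. These shares rest on 84, 28 and 5 counts, so the last is poorly determined, and the day 1 share has 1 *Sucnr1* fl/fl library (258 counts) to compare with. The library with the most *Sucnr1* left was the Hep-*Sucnr1* KO library of day 1. All 8 hepatocyte markers were present in every library, at a summed 75133 to 87801 CPM in *Sucnr1* fl/fl, against 61038 to 89633 CPM in Hep-*Sucnr1* KO. The 10 Kupffer cell markers were all detected in every library but summed to only 41.3 to 132.1 CPM in *Sucnr1* fl/fl, against 8.51 to 119.3 CPM in Hep-*Sucnr1* KO. In bulk samples a change in the number of cells of a type and a change in RNA per cell cannot be told apart.

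No genotype difference was detected for either gene of the sensor pair, and *Nfe2l2* was among the steadiest mRNAs of the table. *Nfe2l2* (ENSMUSG00000015839, chr2:75675513-75704641, minus strand) was at 173.6, 168.5 and 181.5 CPM in *Sucnr1* fl/fl 1, 2 and 3, against 184.6, 183.1 and 177.7 CPM in Hep-*Sucnr1* KO 3, 4 and 5. The groups overlapped in that *Sucnr1* fl/fl 3 lay above Hep-*Sucnr1* KO 5, and the highest library was 1.10-fold over the lowest. Over the 6 libraries the SD of log2 CPM of *Nfe2l2* was 0.05, lower than in all but 0.569% of the genes tested, many of which have far fewer counts and so a larger counting error. Its log2 fold change for genotype, positive where Hep-*Sucnr1* KO was higher, was 0.06 (SE 0.108, 95% interval -0.20 to 0.32, FDR 0.998). Throughout, such values come from edgeR's quasi-likelihood test with extraction day in the model, and FDR is the p adjusted over all 15105 genes. In fold terms the interval of *Nfe2l2* ran from 0.872 to 1.24.

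*Keap1* (ENSMUSG00000003308, chr9:21229730-21239361, minus strand) was at 65.5, 63.7 and 80.7 CPM in *Sucnr1* fl/fl, against 62.0, 66.5 and 77.0 CPM in Hep-*Sucnr1* KO. Each genotype had 1 library of day 2 that was clearly highest, *Sucnr1* fl/fl 3 and Hep-*Sucnr1* KO 5, and the groups overlapped throughout. The log2 fold change was -0.03 (SE 0.130, 95% interval -0.34 to 0.28, FDR 0.998). The ratio of *Nfe2l2* to *Keap1* in CPM per kilobase of exon was 3.11 ± 0.285 (SD, n = 3) in *Sucnr1* fl/fl, against 3.31 ± 0.423 in Hep-*Sucnr1* KO. Between genotypes the two-sided exact permutation p was 0.5, where 3 against 3 cannot give less than 0.1.

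The target genes differed widely in abundance. Levels of different genes are compared here as CPM per kilobase of exon, and on that scale *Hmox1* was the most abundant of the 10, at 1499 ± 151.4 (SD over the 6 libraries) and rank 60 among all genes tested. *Srxn1* followed at 377.2 ± 98.3, *Gclc* at 178.3 ± 37.9, *Txnrd1* at 82.3 ± 10.3, *Gsr* at 54.1 ± 3.16, *Nfe2l2* at 46.9 ± 1.63, *Gclm* at 26.4 ± 2.59 and *Keap1* at 14.8 ± 1.64. *Nqo1* at 3.09 ± 0.475 and *Slc7a11* at 2.83 ± 1.57 were lowest. The ranges over libraries of neighbours in this order did not overlap except for *Nqo1* and *Slc7a11*, which stood in this order in 4 of 6 libraries. *Gsr* and *Nfe2l2* were close, with 50.5 in the lowest *Gsr* library and 48.6 in the highest *Nfe2l2* library, and both this pair and the last pair changed places when the length of the longest protein-coding transcript was used (6 of 10 genes kept their place).

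**Figure D1:**
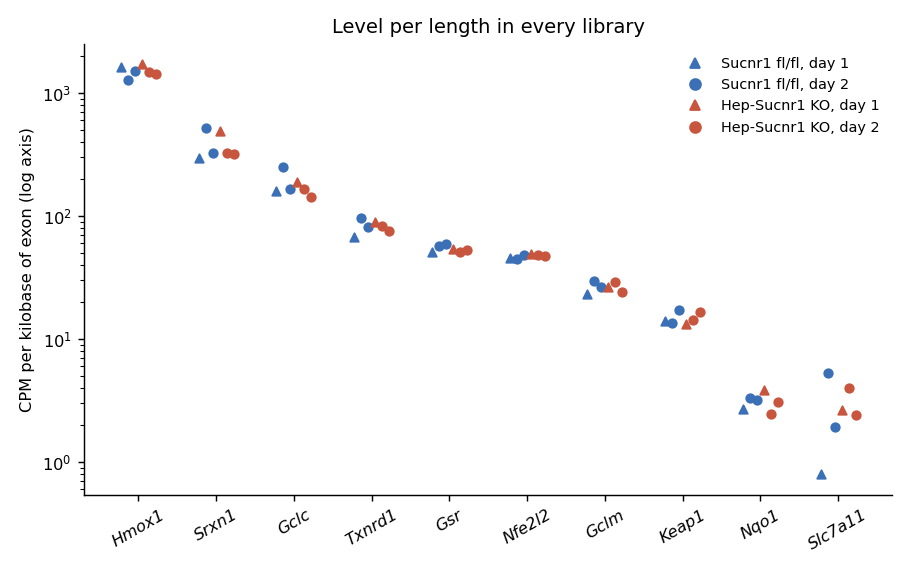
Level of each of the 10 genes in CPM per kilobase of exon (log axis), with 1 point for each library, coloured by genotype and shaped by extraction day. *Hmox1* lies around 1499 and *Nqo1* and *Slc7a11* near 3.09 and 2.83, and the points of both genotypes mix in each column.

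The enzymes of heme and quinone metabolism stood at opposite ends of that order. *Hmox1* (ENSMUSG00000005413, chr8:75093621-75100589, plus strand) encodes heme oxygenase 1, the inducible enzyme that breaks heme down to biliverdin, carbon monoxide and iron. It was at 2821, 2218 and 2653 CPM in *Sucnr1* fl/fl, against 2981, 2580 and 2493 CPM in Hep-*Sucnr1* KO. Both day 1 libraries were higher than all 4 day 2 libraries, and the genotypes overlapped. The log2 fold change for genotype was 0.07 (SE 0.152, 95% interval -0.30 to 0.43, FDR 0.998), and that of day 2 against day 1 was -0.22 (SE 0.160, FDR 0.891). The ratio of *Hmox1* to its constitutive counterpart *Hmox2*, in CPM per kilobase of exon, was 93.1 to 128.3 over the 6 libraries. It was 109.2 ± 17.8 in *Sucnr1* fl/fl, against 104.8 ± 7.16 in Hep-*Sucnr1* KO (n = 3 each, exact permutation p = 0.8).

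*Nqo1* (ENSMUSG00000003849, chr8:107388225-107403206, minus strand) encodes a quinone reductase often used as a marker of NRF2 activity. In these hepatocytes it was weakly expressed beside the other targets, with 162, 170 and 151 counts in *Sucnr1* fl/fl, against 188, 130 and 156 counts in Hep-*Sucnr1* KO. These counts carry a counting error of 7.29% to 8.77%, and they correspond to 4.21, 5.11 and 4.98 CPM in *Sucnr1* fl/fl, against 5.95, 3.84 and 4.74 CPM in Hep-*Sucnr1* KO. Both the highest and the lowest library were Hep-*Sucnr1* KO. The log2 fold change was 0.01 (SE 0.215, 95% interval -0.50 to 0.52, FDR 0.998), and its sign turned with DESeq2 and under every other scaling and filter tried.

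Glutathione synthesis starts with glutamate-cysteine ligase, whose catalytic subunit is encoded by *Gclc* and whose modifier subunit by *Gclm*. *Gclc* (ENSMUSG00000032350, chr9:77754535-77794485, plus strand) was at 597.8, 938.1 and 627.8 CPM in *Sucnr1* fl/fl, against 712.6, 620.6 and 532.7 CPM in Hep-*Sucnr1* KO. *Sucnr1* fl/fl 2 stood alone at the top, and the remaining libraries of the genotypes were interleaved. Its log2 fold change was -0.21 (SE 0.223, 95% interval -0.74 to 0.32, FDR 0.998), and without *Sucnr1* fl/fl 2 the value was 0.04.

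*Gclm* (ENSMUSG00000028124, chr3:122245557-122270732, plus strand) was at 144.6, 187.3 and 165.9 CPM in *Sucnr1* fl/fl, against 166.2, 181.0 and 152.2 CPM in Hep-*Sucnr1* KO, so the *Sucnr1* fl/fl libraries held both extremes. Its log2 fold change was 0.01 (SE 0.134, 95% interval -0.31 to 0.33, FDR 0.998). The ratio of *Gclc* to *Gclm* in CPM per kilobase of exon ran from 5.73 to 8.37. It was 7.20 ± 1.05 in *Sucnr1* fl/fl, against 6.24 ± 0.796 in Hep-*Sucnr1* KO (n = 3 each, exact permutation p = 0.3).

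*Gsr*, *Txnrd1* and *Srxn1* encode enzymes that return oxidized thiols to their reduced state. *Gsr* (ENSMUSG00000031584, chr8:33652523-33698163, plus strand), the gene of glutathione reductase, was at 139.1, 156.5 and 161.6 CPM in *Sucnr1* fl/fl, against 149.1, 141.4 and 146.3 CPM in Hep-*Sucnr1* KO. All 3 Hep-*Sucnr1* KO values lay inside the *Sucnr1* fl/fl range, and the log2 fold change was -0.06 (SE 0.113, 95% interval -0.33 to 0.20, FDR 0.998). Like *Nfe2l2*, *Gsr* varied little, with a highest library 1.16-fold over the lowest and an SD of log2 CPM at percentile 4.91 of the genes tested.

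*Txnrd1* (ENSMUSG00000020250, chr10:82833951-82897712, plus strand), the gene of the cytosolic thioredoxin reductase, was at 477.9, 684.1 and 575.7 CPM in *Sucnr1* fl/fl, against 637.3, 589.1 and 533.4 CPM in Hep-*Sucnr1* KO. Again both extremes were *Sucnr1* fl/fl libraries, 1 and 2, and all Hep-*Sucnr1* KO values lay between them. The log2 fold change was 0.03 (SE 0.172, 95% interval -0.38 to 0.44, FDR 0.998). In CPM per kilobase of exon, the ratio of *Txnrd1* to its mitochondrial paralog *Txnrd2* was 21.97 ± 3.78 in *Sucnr1* fl/fl, against 21.5 ± 0.899 in Hep-*Sucnr1* KO (exact permutation p = 1.0).

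*Srxn1* (ENSMUSG00000032802, chr2:152105516-152111376, plus strand) encodes sulfiredoxin, which repairs overoxidized peroxiredoxins. Its values were 827.7, 1449 and 908.9 CPM in *Sucnr1* fl/fl, against 1388, 915.6 and 892.8 CPM in Hep-*Sucnr1* KO. Here 1 library of each genotype, *Sucnr1* fl/fl 2 and Hep-*Sucnr1* KO 3, stood well above the other 4, which lay between 827.7 and 915.6 CPM. The genotype means were almost the same (1062 ± 337.5 and 1065 ± 279.5 CPM), with a log2 fold change of -0.01 (SE 0.286, 95% interval -0.69 to 0.67, FDR 0.998).

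*Slc7a11* was the most variable of the 10. It encodes xCT, the light chain of the transporter that imports cystine for glutathione synthesis in exchange for glutamate, and it is known as a target of ATF4 as well as of NRF2. *Slc7a11* (ENSMUSG00000027737, chr3:49892526-50443614, minus strand) was at 11.1, 73.1 and 26.9 CPM in *Sucnr1* fl/fl, against 36.5, 55.7 and 33.5 CPM in Hep-*Sucnr1* KO. The 3 *Sucnr1* fl/fl libraries spanned the whole range, 6.61-fold from replicate 1 to replicate 2, and enclosed all Hep-*Sucnr1* KO libraries; with 425 counts in the lowest library, counting error there was 4.85%. The SD of log2 CPM, 0.94, was at percentile 95.3 of the genes tested.

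The genotype difference of *Slc7a11* was therefore poorly determined. The log2 fold change was 0.43 (SE 0.515, 95% interval -0.79 to 1.66, FDR 0.998), so anything from 0.578-fold to 3.15-fold lay within the interval. It became 1.14 without *Sucnr1* fl/fl 2, -0.17 without *Sucnr1* fl/fl 1 and -0.18 without Hep-*Sucnr1* KO 3. Each fit without a day 1 library leaves 1 library on that day and so compares the genotypes within day 2 only. *Slc7a11* also had the largest day difference of the 10 genes, 1.12 (SE 0.571, FDR 0.776), which was 0.29 without *Sucnr1* fl/fl 1, 0.65 without *Sucnr1* fl/fl 2 and 2.15 without Hep-*Sucnr1* KO 3 (FDR 0.964). *Slc3a2* encodes the heavy chain of the same transporter. The ratio of *Slc7a11* to *Slc3a2* in CPM per kilobase of exon ran from 0.0422 in *Sucnr1* fl/fl 1 to 0.173 in *Sucnr1* fl/fl 2 (exact permutation p between genotypes = 0.6).

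**Figure D2:**
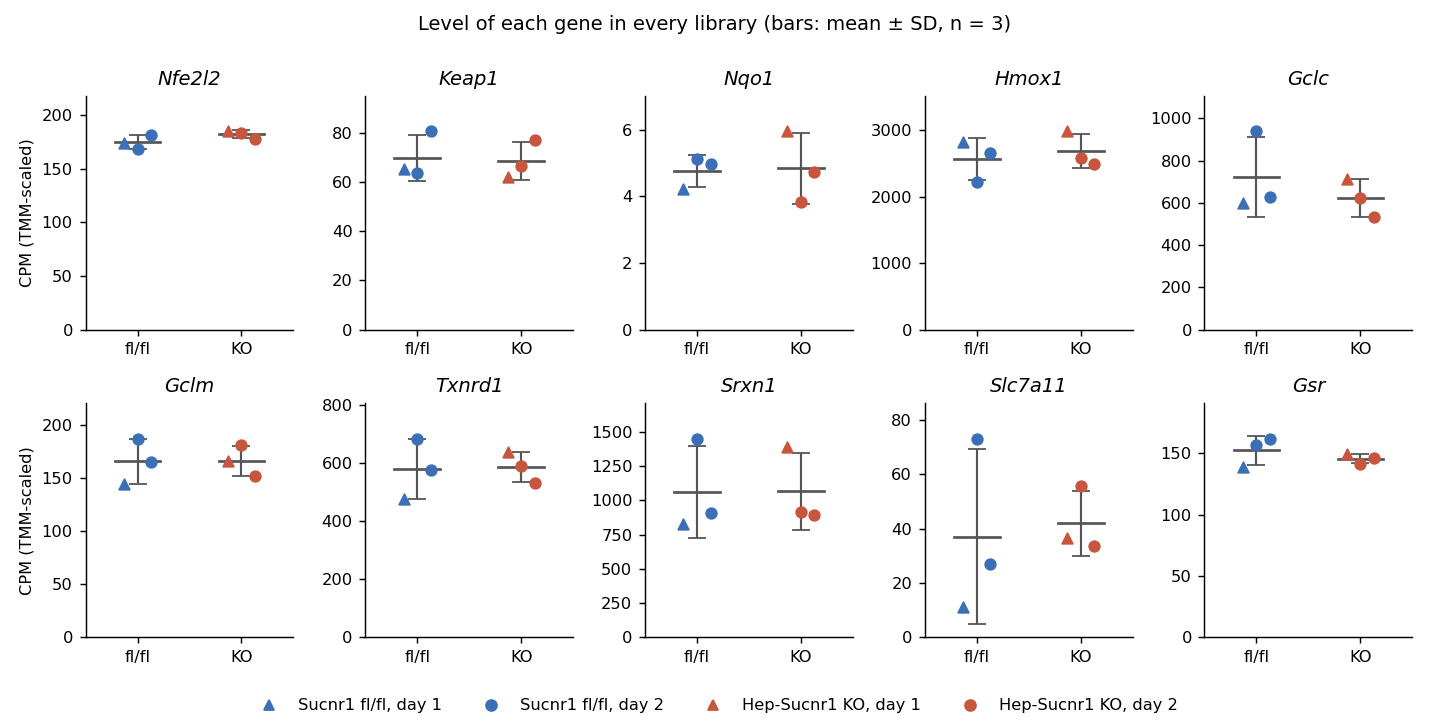
CPM (TMM-scaled, linear axes from 0) of each gene in every library, with triangles for extraction day 1, circles for day 2, and bars for the mean ± SD of 3 libraries. The genotypes overlap in all 10 panels, and the points spread little for *Nfe2l2* (168.5 to 184.6) and widely for *Slc7a11* (11.1 to 73.1).

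Across the 10 genes, none passed an FDR of 0.05 for genotype, none had an unadjusted p below 0.05, and in none did the 3 Hep-*Sucnr1* KO libraries lie wholly above or below the 3 *Sucnr1* fl/fl libraries. Among all genes tested the corresponding shares were 0%, 3.73% and 10.6%, and DESeq2 called 7 genes for genotype, *Sucnr1* among them and none of the 10. In Hep-*Sucnr1* KO 6 of the 10 genes stood higher and 4 lower, with a median log2 fold change of 0.01 beside 0.003 for all genes. The number higher was 4 with DESeq2, with DESeq2 size factors, with no filter and with edgeR's own filter, each with a median below 0. It was 3 with library size alone, 2 in the day 2 libraries alone and 7 without the day term. For the 9 genes other than *Slc7a11*, every 95% interval lay between 0.598-fold and 1.59-fold.

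**Figure D3:**
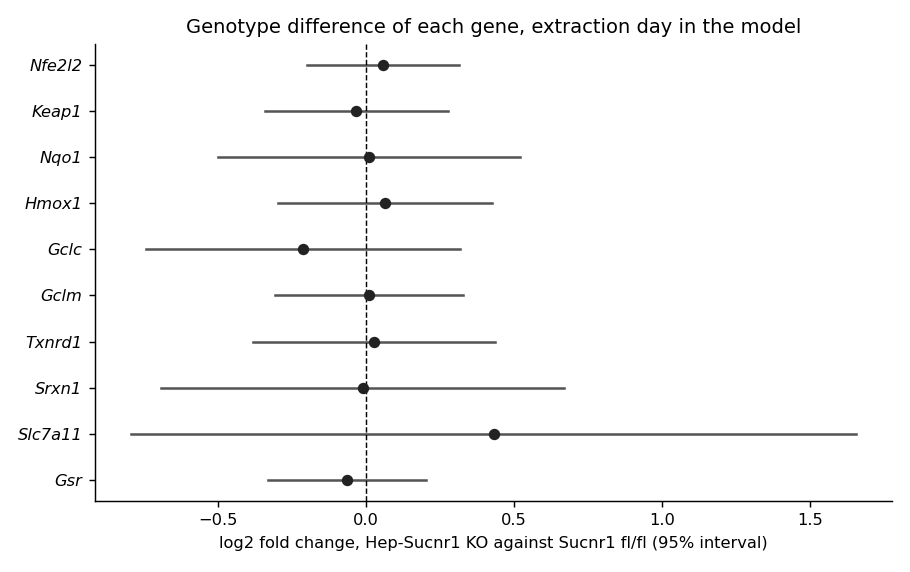
Genotype difference of each gene (log2 fold change, positive where Hep-*Sucnr1* KO was higher, points) with its 95% interval (lines) from edgeR, extraction day in the model. All 10 intervals cross 0, from the narrowest, *Nfe2l2* (-0.20 to 0.32), to the widest, *Slc7a11* (-0.79 to 1.66).

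Although the genotypes did not separate, several targets shared the libraries in which they were highest and lowest. *Sucnr1* fl/fl 2 was the highest of the 6 libraries for 5 of the 8 targets (*Gclc*, *Gclm*, *Txnrd1*, *Srxn1* and *Slc7a11*), and *Sucnr1* fl/fl 1 was the lowest for 5 (*Gclm*, *Txnrd1*, *Srxn1*, *Slc7a11* and *Gsr*). Of the targets 4 met both descriptions, while 5.12% of all genes tested had the same extremes. For each description alone the share of all genes tested was not computed. The order of the extremes did not extend to *Hmox1* or to *Nfe2l2*, which were at their lowest in *Sucnr1* fl/fl 2. From *Sucnr1* fl/fl 1 to *Sucnr1* fl/fl 2 the ratio of CPM was 6.61 for *Slc7a11*, 1.75 for *Srxn1*, 1.57 for *Gclc*, 1.43 for *Txnrd1*, 1.29 for *Gclm*, 1.21 for *Nqo1* and 1.13 for *Gsr*, and 0.786 for *Hmox1*. With library size alone in place of TMM factors *Sucnr1* fl/fl 2 was the highest for 6 of the 8, and with DESeq2 size factors *Sucnr1* fl/fl 1 was the lowest for 4.

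Hep-*Sucnr1* KO 3 was above the mean of the 6 libraries for 8 of 8 targets, though by only 0.006 for *Gclm* and 0.003 for *Gsr* in log2 CPM. Hep-*Sucnr1* KO 5 was above that mean for 0 of 8. With DESeq2 size factors the counts were 6 and 0. The shares of all genes tested above their mean in these libraries were not computed, so the counts cannot be read as particular to the targets. The median deviation of the 8 targets in log2 CPM was -0.18 in *Sucnr1* fl/fl 1, 0.21 in *Sucnr1* fl/fl 2, -0.003 in *Sucnr1* fl/fl 3, 0.13 in Hep-*Sucnr1* KO 3, -0.05 in Hep-*Sucnr1* KO 4 and -0.09 in Hep-*Sucnr1* KO 5. The largest contrast was thus between 2 libraries of the same genotype. They were of different extraction days, and *Sucnr1* fl/fl 1 held the most counts of all libraries and *Sucnr1* fl/fl 2 the fewest. The part of day and of depth in the contrast was not tested. The summed Kupffer cell markers moved otherwise: they were lowest in Hep-*Sucnr1* KO 3 (8.51 CPM), alike in *Sucnr1* fl/fl 1 and 2 (41.8 and 41.3 CPM) and higher in the other 3. The summed stellate cell and sinusoidal endothelial markers were highest in *Sucnr1* fl/fl 1 (24.7 and 65.9 CPM, against 10.9 and 39.6 CPM in *Sucnr1* fl/fl 2), and their part in the pattern was not tested.

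Since ATF4 also controls *Slc7a11*, 8 genes of the ATF4 response were laid beside the targets. Of these 4, namely *Chac1*, *Asns*, *Sesn2* and *Psat1*, had the same extremes as *Slc7a11*, lowest in *Sucnr1* fl/fl 1 and highest in *Sucnr1* fl/fl 2. *Psat1*, an enzyme of serine synthesis, went from 6.94 to 36.5 CPM between these libraries, and *Chac1*, which degrades glutathione, went from 9.08 to 36.8 CPM. *Asns*, asparagine synthetase, went from 6.63 to 19.6 CPM and *Sesn2*, a sestrin induced when amino acids run short, from 8.71 to 21.02 CPM.

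The other ATF4 genes did not share this order. *Atf4* itself was highest in Hep-*Sucnr1* KO 3, at 182.4 CPM, while *Sucnr1* fl/fl 1 had 129.4 CPM and *Sucnr1* fl/fl 2 had 174.5 CPM. *Ddit3* (CHOP) and *Ddit4*, both induced in stress, ran the opposite way, from 15.6 to 8.87 CPM and from 176.9 to 71.4 CPM, and both were lowest in *Sucnr1* fl/fl 2. *Trib3* went from 30.7 to 22.8 CPM. Whether ATF4 had a part in the spread of *Slc7a11* was not tested. For genotype none of the 8 passed (median log2 fold change 0.07, 7 higher and 1 lower); for day *Sesn2* had 0.73 (SE 0.228, FDR 0.548) and *Trib3* -0.40 (SE 0.134, FDR 0.549), both below an unadjusted p of 0.05.

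**Figure D4:**
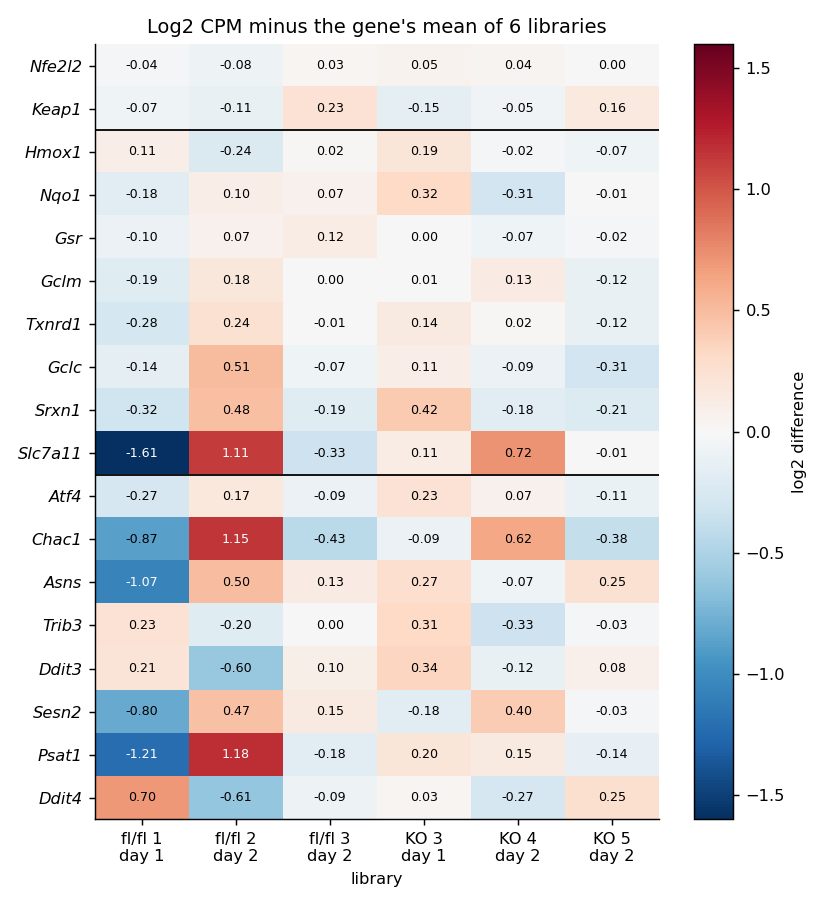
Log2 CPM of each gene minus its mean over the 6 libraries (colour and printed value), for *Nfe2l2* and *Keap1*, the 8 targets and 8 ATF4 genes, from top to bottom between the black lines. *Slc7a11*, *Chac1*, *Asns*, *Sesn2* and *Psat1* are lowest in *Sucnr1* fl/fl 1 and highest in *Sucnr1* fl/fl 2, while *Ddit3* and *Ddit4* are lowest in *Sucnr1* fl/fl 2.

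Within extraction days the targets gave opposite signs. On day 1, when each genotype had 1 library and there is no replicate check, 8 of 8 targets were higher in Hep-*Sucnr1* KO, with a median log2 difference of 0.33. On day 2, with 2 libraries of each genotype, 7 of 8 were lower, with a median of -0.15, and *Hmox1* was the exception at 0.06. Of all genes tested, 51.2% were higher in Hep-*Sucnr1* KO on day 1 and 49.0% were lower on day 2. Being higher in Hep-*Sucnr1* KO on day 1 and lower on day 2 applied to 7 of the 8 targets and to 24.7% of all genes tested, and the medians over all genes were 0.01 on both days. The counts were the same with DESeq2 size factors, and with library size alone 8 of 8 were lower on day 2.

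The size of the reversal differed between targets. *Slc7a11* went from 1.72 on day 1 to -0.04 on day 2, *Srxn1* from 0.75 to -0.34, *Nqo1* from 0.49 to -0.24, *Gclc* from 0.25 to -0.42 and *Txnrd1* from 0.42 to -0.16. *Nfe2l2* had 0.09 and 0.04 and *Keap1* -0.08 and -0.002. The interaction of genotype and day was tested directly, in a model where day 1 has 1 library per genotype and the spread between libraries comes from day 2 alone. None of the 10 genes passed an FDR of 0.05 and none had an unadjusted p below 0.05 (edgeR; among all genes 0% and 3.69%). Its sign was negative for the 8 targets, as follows from the differences within days, and for 49.6% of all genes. On the log2 scale it was -1.89 for *Slc7a11* and -1.13 for *Srxn1*, and the lowest FDR over all genes was 0.9997. The day 1 difference rests on *Sucnr1* fl/fl 1, the lowest library for 5 targets, and on Hep-*Sucnr1* KO 3, which had the most *Sucnr1* left and the fewest Kupffer cell markers. The 6 cholangiocyte markers summed to 540.0 CPM in Hep-*Sucnr1* KO 3, against 291.0 to 385.0 CPM in the other 5 libraries, and 537.5 of the 540.0 CPM were *Spp1*, while *Sctr* was at 0 in all but *Sucnr1* fl/fl 3. What these values share with the targets was not tested.

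**Figure D5:**
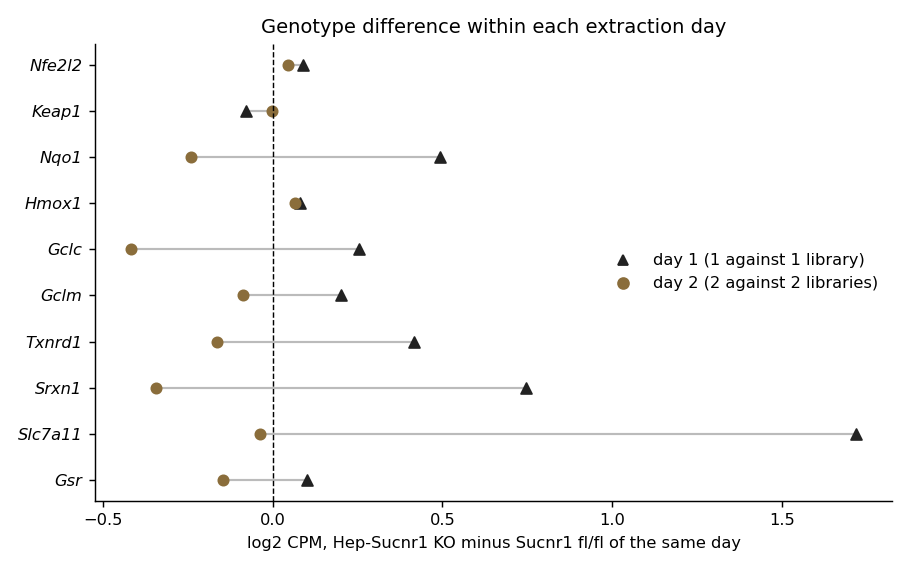
Genotype difference in log2 CPM of each gene, positive where Hep-*Sucnr1* KO was higher, on extraction day 1 (triangles, 1 against 1 library) and day 2 (circles, means of 2 against 2 libraries). All 8 targets lie right of 0 on day 1, and all but *Hmox1* (0.06) lie left of 0 on day 2.

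For extraction day alone none of the 10 genes passed an FDR of 0.05 in the main edgeR fit and none had an unadjusted p below 0.05, against 0% and 7.49% of all genes. DESeq2 called 225 genes for day and edgeR without the filter 122, again none of the 10. In edgeR without the filter *Slc7a11* had an unadjusted day p of 0.015 (FDR 0.452). Of the 10 genes 6 were higher and 4 lower on day 2, with a median log2 fold change of 0.05 beside 0.02 for all genes. *Keap1* had 0.18 (SE 0.139), with 0.10 to 0.22 as each library was left out, and *Nfe2l2* had -0.01 (SE 0.115). *Gclm* had 0.14 (SE 0.143), which was 0.0027 without *Sucnr1* fl/fl 1, 0.046 without *Sucnr1* fl/fl 2 and 0.25 without Hep-*Sucnr1* KO 3.

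The rest of the pathway gave no genotype call either. Of 64 further genes in 7 lists, 63 were tested, and *Gpx2* was below the filter. None had an unadjusted genotype p below 0.05, 43 were higher and 20 lower (50.5% of all genes tested were higher), the median log2 fold change was 0.06, the adjusted p was 0.998 throughout, and in 6 the genotypes did not overlap, which is 9.52% of the 63 beside 10.6% of all genes.

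Among 14 regulators of NRF2, 7 were higher and 7 lower (median -0.01). *Bach1*, the heme-sensitive repressor that competes with NRF2 for its elements, was at 369.6, 304.0 and 269.6 CPM in *Sucnr1* fl/fl, against 308.9, 259.8 and 199.0 CPM in Hep-*Sucnr1* KO. Day 1 stood above day 2 within each genotype, and the log2 fold change of *Bach1* was -0.30 for genotype (SE 0.145) and -0.40 for day (SE 0.152, FDR 0.606). *Rbx1*, the RING subunit of the KEAP1-CUL3 ligase, was at 15.9, 16.5 and 17.3 CPM in *Sucnr1* fl/fl, against 19.4, 19.0 and 19.0 CPM in Hep-*Sucnr1* KO, with no overlap and a log2 fold change of 0.21 (SE 0.105). *Cul3*, the scaffold of the same ligase, did not overlap in the other direction, at 62.4, 64.6 and 62.4 CPM in *Sucnr1* fl/fl, against 62.0, 58.2 and 55.0 CPM in Hep-*Sucnr1* KO (log2 fold change -0.11, SE 0.10). The coactivator gene *Crebbp* had -0.24 (SE 0.141). For day, *Gsk3b*, a kinase that marks NRF2 for degradation, had -0.36 (SE 0.117, FDR 0.548) and *Syvn1*, an NRF2 ligase of the endoplasmic reticulum, 0.34 (SE 0.134, FDR 0.629).

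Among 12 tested genes of thiol and peroxide handling 9 were higher and 3 lower (median 0.06). *Prdx1*, a peroxiredoxin and the substrate of sulfiredoxin, was at 525.3, 674.6 and 662.0 CPM in *Sucnr1* fl/fl, against 687.8, 778.2 and 718.3 CPM in Hep-*Sucnr1* KO. These did not overlap, and the log2 fold change was 0.24 (SE 0.131). The thioredoxin gene *Txn1* had 0.21 (SE 0.110) and *Prdx6* 0.21 (SE 0.141). *Slc6a9*, a glycine transporter, had a day difference of 0.48 (SE 0.130, FDR 0.509), with *Sucnr1* fl/fl 1 lowest and *Sucnr1* fl/fl 2 highest (55.4 and 92.0 CPM).

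None of the 6 genes of NADPH supply was below an unadjusted p of 0.05, and all 6 log2 fold changes were above 0 (median 0.15), where 50.5% of all genes tested were higher in Hep-*Sucnr1* KO. *Taldo1*, transaldolase of the pentose phosphate pathway, had 0.20 (SE 0.103), and malic enzyme *Me1* had 0.19 (SE 0.134). The isocitrate dehydrogenase gene *Idh1* was at 185.1, 184.6 and 171.1 CPM in *Sucnr1* fl/fl, against 196.8, 204.0 and 200.7 CPM in Hep-*Sucnr1* KO, with no overlap and a log2 fold change of 0.15 (SE 0.110). *G6pdx*, the entry enzyme of the pathway, lay between 11.7 and 21.7 CPM.

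In conjugation and quinone detoxification 7 of 12 genes were higher and 5 lower (median 0.08). The glutathione transferase gene *Gsta3* had 0.40 (SE 0.221), with Hep-*Sucnr1* KO 4 far above the others at 918.6 CPM. *Ephx1*, microsomal epoxide hydrolase, was lower in every Hep-*Sucnr1* KO library (251.6 to 283.2 CPM, against 299.7 to 313.4 CPM), with -0.19 (SE 0.117). *Akr1b8* had -0.50 (SE 0.318) at 2.41 to 5.88 CPM. *Ugdh*, which makes UDP-glucuronic acid, had -0.48 for day (SE 0.153, FDR 0.548).

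Of 5 exporters 2 were higher and 3 lower (median -0.22), and all 5 were higher on day 2. *Abcc3*, which exports glucuronides into blood, was at 146.8, 144.8 and 185.0 CPM in *Sucnr1* fl/fl, against 109.5, 142.5 and 144.6 CPM in Hep-*Sucnr1* KO; the groups were just apart, with -0.27 (SE 0.135). In heme and iron handling, downstream of *Hmox1*, 5 of 6 were higher (median 0.10): the biliverdin reductase genes *Blvrb* and *Blvra* had 0.29 (SE 0.149) and 0.25 (SE 0.157), and the iron exporter gene *Slc40a1* had -0.32 (SE 0.221).

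Outside these lists, the genes whose profile over the 6 libraries was most like the median profile of the 8 targets were *Kansl2*, *Axin1*, *Cdk11b*, *Phf5a* and *Wipi2*, among 7057 genes with a mean of at least 10 CPM. Likeness was the root mean square difference in centred log2 CPM, which was 0.0224 for *Kansl2*, 0.0279 for *Axin1*, 0.0323 for *Cdk11b*, 0.0326 for *Phf5a* and 0.0342 for *Wipi2*. *Axin1*, for example, was at 19.5, 27.2 and 22.9 CPM in *Sucnr1* fl/fl, against 25.1, 22.7 and 21.7 CPM in Hep-*Sucnr1* KO. Of the targets *Txnrd1* was the nearest to their median, at 0.0507, and *Slc7a11* the farthest, at 0.768.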

How the data were processed

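Stranded paired-end mRNA libraries of 6 mice were analysed, 3 *Sucnr1* fl/fl and 3 Hep-*Sucnr1* KO, grouped by their labels. Per the study's methods and processing notes, the authors trimmed reads with Trim Galore 0.6.7, aligned them to GRCm38 with STAR 2.7.10a and counted read pairs per gene by strand with featureCounts; the deposited values are raw counts. How read pairs matching several genes were counted is not given in the sources used here. Totals of 30504248 to 38770694 counts per library leave a counting error of at most 2.26% for the 8 genes other than *Nqo1* and *Slc7a11*.

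Here the filter on low counts asked for a mean above 5 after scaling by DESeq2 size factors. CPM were scaled with TMM factors, and genotype, extraction day and their interaction were tested over all 15105 genes with the quasi-likelihood test of edgeR 4.0.16 (R 4.3.3), adjusted after Benjamini-Hochberg (FDR, threshold 0.05); in the interaction model day 1 has 1 library per genotype. For single values two-sided exact permutation tests were used. Exon lengths and coordinates came from GENCODE annotation of GRCm38, promoters from RefSeq. Alternatives were DESeq2 1.42.0, other scalings, filters and covariates, day 2 alone and each library left out; transcript length was added after seeing the data. Besides the 10 genes and *Sucnr1*, the text names up to 3 genes of each pathway list with the lowest p for genotype and up to 3 for day, and the 5 nearest profiles; *Cul3*, *Spp1*, *Sctr*, the other ATF4 genes and the partners used in ratios were chosen after their values were seen. The members and lists were chosen with earlier results of these data known. Tests were tested on simulated data.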

Additional observations from a re-analysis of the deposited data

How the results depend on the processing

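In 150 recomputed genotype values and 110 day values of the 10 genes no call changed: the lowest adjusted p was 0.928 for genotype and 0.452 for day. Of the signs, 38 genotype and 11 day values reversed, and where the cause is not given by fewer samples it was not tested. For genotype, day 2 alone and leaving out either day 1 library make nearly the same comparison, so their reversals are not separate checks.

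The number of genes higher in Hep-*Sucnr1* KO was 6. It became 4 with DESeq2, DESeq2 size factors, no filter and edgeR's own filter, with medians of -0.011, -0.011, -0.0098 and -0.0020. Library size alone gave 3, with a median of -0.023, and day 2 alone gave 2, with a median of -0.17. Without the day term the number was 7, and with the series of library names as a term 5. With each library left out the number ran from 2 to 7 and the median from -0.17 to 0.078. For day the number higher, 6, ran from 3 to 8 and the median from -0.12 to 0.24. With transcript length 6 genes kept their place in the order of levels.

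Reversed genotype values of *Nqo1* and *Gclm* were -0.010 and -0.011 with DESeq2, -0.012 and -0.011 with DESeq2 size factors, -0.023 for both with library size alone, -0.0096 and -0.010 with no filter and -0.0017 and -0.0022 with edgeR's own filter. Library size alone gave -0.010 for *Txnrd1*, and no day term 0.0050 for *Srxn1*. With the series of library names (numbers 39 and 40 against 85 to 88) as a term *Nfe2l2* had -0.010, *Nqo1* -0.10, *Hmox1* -0.081, *Gclc* 0.022 and *Srxn1* 0.21, and *Slc7a11* kept its sign at 1.11. Numbers 39 and 40 are *Sucnr1* fl/fl 1 and 2, so on the *Sucnr1* fl/fl side these values rest mainly on *Sucnr1* fl/fl 3. Day 2 alone gave -0.24 for *Nqo1*, -0.094 for *Gclm*, -0.18 for *Txnrd1* and -0.18 for *Slc7a11*.

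Leaving out a day 1 library leaves 1 library on that day, which the day term fits exactly. The genotype value then compares day 2 libraries only, and for the day value that library is assumed to vary like the others. With each library left out, genotype values ran from -0.13 to 0.064 for *Keap1*, -0.24 to 0.17 for *Nqo1*, -0.0034 to 0.14 for *Hmox1*, -0.45 to 0.036 for *Gclc*, -0.094 to 0.11 for *Gclm*, -0.18 to 0.15 for *Txnrd1*, -0.40 to 0.31 for *Srxn1* and -0.18 to 1.14 for *Slc7a11*. Day values ran from -0.038 to 0.00071 for *Nfe2l2*, -0.47 to 0.22 for *Nqo1*, -0.31 to 0.36 for *Gclc*, -0.18 to 0.36 for *Txnrd1*, -0.62 to 0.48 for *Srxn1*, -0.052 to 0.16 for *Gsr*, and with no change of sign 0.10 to 0.22 for *Keap1*, 0.0027 to 0.25 for *Gclm* and 0.29 to 2.15 for *Slc7a11*. No paired analysis was possible because the genotypes share 1 replicate number only; extraction day, which both genotypes share, is a term of the model instead.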
